A study of Mus musculus with 8 samples.

Results

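Hydroxysteroid dehydrogenases are enzymes that move hydrogen between a hydroxyl and a keto group on the steroid skeleton, and by doing so switch a steroid between its active and inactive form. The 10 genes described here were taken by name from the 21049 genes in the deposited mouse liver table, by a list drawn up with earlier results of these data known: Hsd3b2, Hsd3b3, Hsd3b5, Hsd3b7, Hsd11b1, Hsd17b2, Hsd17b6, Hsd17b10, Hsd17b11 and Hsd17b13. All 10 were present, and all 10 had a mean of at least 1 FPKM (fragments per kilobase of transcript, scaled to the mapped reads of the library, which gives a level per transcript length), the minimum for a test. The data were messenger RNA sequencing libraries from liver of wild-type mice on the C57BL/6 background, 4 given saline as control and 4 fed alcohol. The labels and design text used here gave no dose, duration, age or sex, and 1 batch label covered all 8 samples.

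The family sits on several liver pathways. Hsd11b1 regenerates active glucocorticoid inside hepatocytes, Hsd17b2 and Hsd17b6 oxidise sex steroids, and the Hsd3b enzymes act on the steroid A ring, with Hsd3b7 devoted to bile acid synthesis and Hsd3b5 known in mice as a male-liver enzyme that reduces rather than forms active keto-steroids. The other members carry the family name but are best known for other work: Hsd17b10 breaks down isoleucine in mitochondria and is a subunit of the mitochondrial RNase P, and Hsd17b11 and Hsd17b13 sit on the surface of lipid droplets.

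Of the 10 genes, 7 fell with alcohol, 1 rose narrowly and 2 did not pass the test. Hsd3b5 fell most, to 11.9% of its control level, and Hsd17b6 and Hsd3b2 fell to 32.7% and 34.3%. Hsd17b10, Hsd17b2, Hsd17b11 and Hsd3b3 fell to between 54.2% and 64.3% of control. Hsd3b7 and Hsd11b1 had nearly equal means in both groups, and Hsd17b13 was at 124% of control. The test was limma on log2(FPKM + 1) with Benjamini-Hochberg adjustment over 9228 genes. By the same test 13.0% of all genes fell and 44.2% rose, so the direction seen in 7 of these 10 genes was the less common one in this comparison. The median change of the 10 genes was -0.70 on the log2 scale, against 0.24 over all tested genes. The members whose 4 alcohol values all lay below the 4 control values also numbered 7, against 10.7% of all tested genes, and 0 members lay wholly above, against 39.5%. When the samples were instead scaled by the median of ratios, 8 members fell and 0 rose, against 26.5% and 25.9% of all genes.

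**Figure D1:**
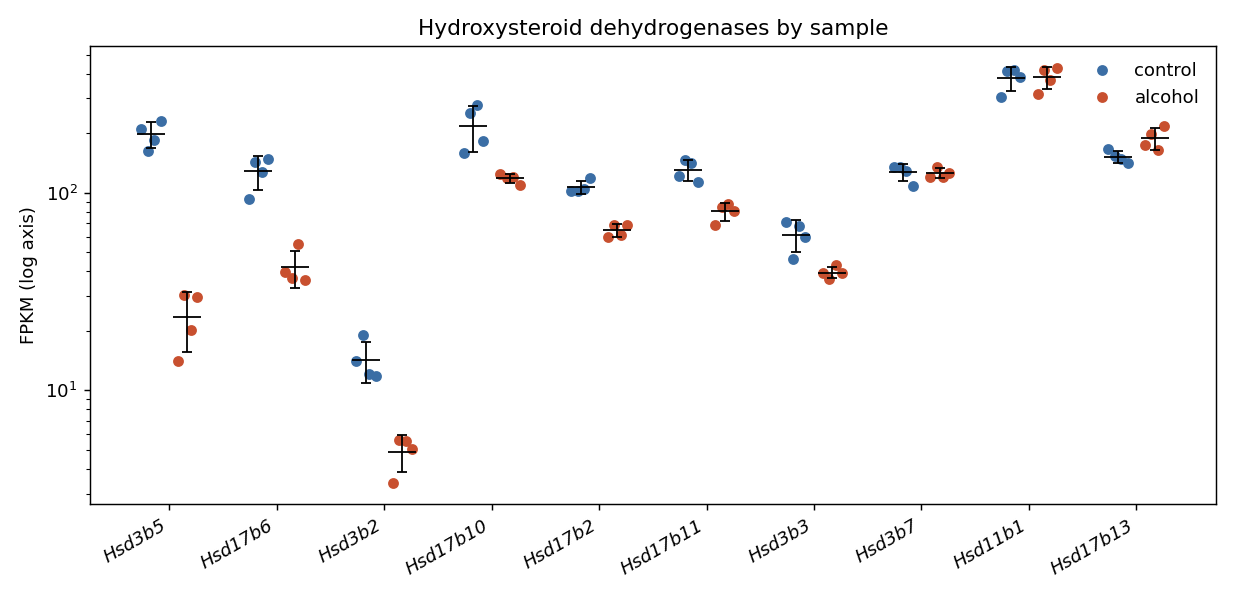
Level of each of the 10 genes in every sample, in FPKM on a log axis, with the 4 control and 4 alcohol samples as separate points and the group mean ± SD in black. Hsd3b5 drops from 163–231 FPKM to 14.0–30.2 FPKM, while the points of Hsd3b7, Hsd11b1 and Hsd17b13 overlap between groups.

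A few facts of the libraries touch every value. Reads assigned to genes, recovered from the FPKM values, totalled 33872595 to 34789814 in the control libraries and 37132631 to 38407511 in the alcohol libraries, so every alcohol library was deeper than every control. The members were well covered at this depth, with between 392 reads (Hsd3b2) and 26154 reads (Hsd11b1) in a library. More genes rose than fell on the FPKM scale, 4080 against 1203, and after median-of-ratios scaling the split was 2386 against 2446, with the median over all genes moving from 0.24 to -0.003. Alcohol replicates 2 and 4 were closer to each other than any other pair within a group, although their difference still exceeded sampling noise. Nothing in the labels says that the samples were separate animals, so the p-values reflect only variation among these libraries, some of which may be technical.

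The labels name liver tissue, a hepatocyte cell type and also AML12, a mouse hepatocyte cell line, for the same samples. Hepatocyte markers were abundant in every library, with a sum over 12 genes of 59613–66983 FPKM in control and 55083–65407 FPKM in alcohol. Albumin (Alb) made up most of that sum, at 36840 FPKM in control and 40292 FPKM in alcohol. Of the 12 hepatocyte genes 3 rose, Tat (to 243% of control), Cps1 and Ass1, and 2 fell, Apoa1 (to 54.6%) and Ttr (to 62.9%), and 1 rose under median-of-ratios or quantile scaling or without any 1 of control replicates 2, 3 and 4 or alcohol replicates 1 and 3. Markers of other liver cells were also present in all libraries: the 11 Kupffer cell and macrophage genes summed to 52.4–160 FPKM in control and 66.0–109 FPKM in alcohol. The 11 sinusoidal endothelial genes summed to 18.4–30.2 FPKM in control and 83.7–102 FPKM in alcohol, and 11 of 11 rose, against 44.2% of all tested genes. Over the alternative settings 5 to 11 rose, with 11 in every fit that left out 1 sample and 9 under quantile normalization. Lyve1 and Kdr, with control means of 0.478 and 0.882 FPKM, reached the minimum for a test only through the alcohol samples, so the count leans upward. The 11 stellate cell genes summed to 72.6–131 FPKM in control and 173–241 FPKM in alcohol, and 6 of the 10 tested rose, against 44.2% of all tested genes. No measured gene on any of the marker lists was at 0 in all 8 samples. This held for the adrenal, gonad and pancreas lists as well, so it cannot tell which tissue or cells were used. The samples are called liver below. In bulk liver RNA, fewer cells of a type and less RNA per cell cannot be told apart, and the part of the endothelial and stellate differences in the results on the hydroxysteroid dehydrogenases was not tested.

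Hsd3b2, Hsd3b3 and Hsd3b5 lie near each other on 1 chromosome and resemble each other, which matters for how their reads are assigned, while Hsd3b7 lies elsewhere and was 62.6% identical to Hsd3b5 in coding sequence. On GRCm38 (GENCODE M21 annotation), Hsd3b5 spans chr3:98618634-98630252, Hsd3b2 spans chr3:98709255-98724543 and Hsd3b3 spans chr3:98741523-98763127, all protein-coding and on the minus strand. The coding sequences of Hsd3b2 and Hsd3b3 were 95.1% identical, and each was 81.3% identical to that of Hsd3b5. Of all 50-base stretches of a member's transcripts, 26.9% were also in another gene's transcripts for Hsd3b2, 21.2% for Hsd3b5 and 8.73% for Hsd3b3. Hsd3b2 and Hsd3b3 shared most with each other (405 stretches), so the split of reads between them is uncertain. Hsd3b5 shared most with another gene, Gm10681 (273 of its 318 shared stretches), and the part of such reads in its level was not tested. Exons of Hsd3b2 and Hsd3b3 also overlap Zfp697 on the other strand, a gene at 0.0598 FPKM or less in every library.

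The 250 bases before the RefSeq start (GRCm38.p6) are shown for the 3 neighbouring Hsd3b genes because 2 of them share a stretch that sets them apart from the third. The capitals mark a run of 24 bases common to Hsd3b5 (chr3:98645535-98645784, minus strand) and Hsd3b3 (chr3:98763129-98763378, minus strand). Hsd3b2 (chr3:98724544-98724793, minus strand) is the third. The RefSeq start used for Hsd3b5 lies 15282 bases from the GENCODE start of the gene.
Hsd3b5: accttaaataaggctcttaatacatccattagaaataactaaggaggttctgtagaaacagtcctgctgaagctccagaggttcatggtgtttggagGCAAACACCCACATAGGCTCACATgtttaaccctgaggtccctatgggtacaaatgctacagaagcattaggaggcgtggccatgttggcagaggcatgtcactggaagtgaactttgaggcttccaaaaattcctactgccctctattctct
Hsd3b3: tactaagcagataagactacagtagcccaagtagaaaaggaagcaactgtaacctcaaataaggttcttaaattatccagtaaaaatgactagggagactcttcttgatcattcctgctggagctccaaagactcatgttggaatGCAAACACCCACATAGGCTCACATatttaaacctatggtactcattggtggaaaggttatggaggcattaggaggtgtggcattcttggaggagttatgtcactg
Hsd3b2: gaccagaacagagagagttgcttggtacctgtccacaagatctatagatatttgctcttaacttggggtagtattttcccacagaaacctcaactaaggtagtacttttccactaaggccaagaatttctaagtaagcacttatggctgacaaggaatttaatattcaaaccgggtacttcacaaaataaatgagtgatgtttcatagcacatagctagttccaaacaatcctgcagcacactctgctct
Among the windows of all genes in the RefSeq table, 2 held this run, those of Hsd3b3 and Hsd3b5. It lay 105 to 82 bases before the start of Hsd3b3 and 153 to 130 bases before that of Hsd3b5. Over the aligned bases, the windows of Hsd3b3 and Hsd3b5 were 75.9% identical, against 64.3% for Hsd3b2 and Hsd3b3 and 65.0% for Hsd3b2 and Hsd3b5. Hsd3b3 fell least of the 3 and Hsd3b5 most, as the values below show, and a link between the run and the response was not tested.

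Hsd3b5 was at 209.8, 163.3, 185.7 and 231.2 FPKM in control replicates 1 to 4 and at 14.0, 30.2, 20.1 and 29.6 FPKM in alcohol replicates 1 to 4. Every control lay far above every alcohol sample. The mean fell from 197 ± 29.4 to 23.5 ± 7.83 FPKM (SD, n = 4 each). The log2 change was -3.07 ± 0.22 (SE; 95% interval -3.56 to -2.58; limma adjusted p = 2.99e-06). This was the 9th largest fall of the 9228 tested genes.

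Hsd3b2, an enzyme of the class that forms active keto-steroids, was the lowest member in control liver. Its 4 control values were 14.1, 19.0, 12.0 and 11.8 FPKM and its 4 alcohol values 3.39, 5.59, 5.51 and 5.02 FPKM, with a wide gap between the groups. The mean fell from 14.2 ± 3.33 to 4.88 ± 1.02 FPKM (SD, n = 4 each), a log2 change of -1.37 ± 0.17 (limma adjusted p = 0.0001).

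Hsd3b3, its close copy, moved less. Control values were 71.4, 46.0, 67.9 and 59.6 FPKM and alcohol values 39.1, 36.6, 42.9 and 39.1 FPKM, so the lowest control, replicate 2, lay just above the highest alcohol sample. The mean fell from 61.2 ± 11.3 to 39.4 ± 2.62 FPKM, a log2 change of -0.61 ± 0.14 (limma adjusted p = 0.00353).

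Because the 3 genes fell by different amounts, the make-up of their summed RNA shifted. The sum of Hsd3b2, Hsd3b3 and Hsd3b5 was 273 ± 33.8 FPKM in control and 67.8 ± 7.85 FPKM in alcohol (SD, n = 4 each). Hsd3b5 made up 69.9–76.4% of that sum in control samples and 24.8–41.8% in alcohol samples. The ratio of Hsd3b3 to Hsd3b5 was 0.258–0.366 in control and 1.21–2.79 in alcohol, so Hsd3b3 was the more abundant of the pair in all 4 alcohol samples and in none of the controls. These sums and ratios are descriptions with no test. A ratio within a sample does not change when each sample is scaled by a single factor, although quantile normalization can change it.

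**Figure D2:**
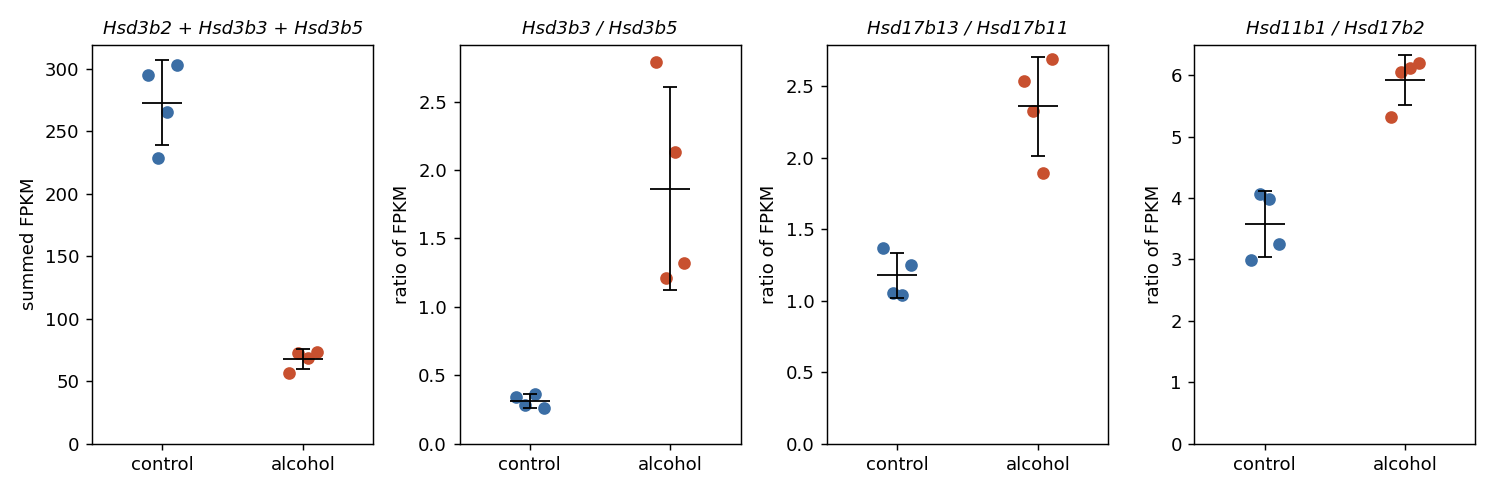
The summed FPKM of Hsd3b2, Hsd3b3 and Hsd3b5 and the ratios Hsd3b3 / Hsd3b5, Hsd17b13 / Hsd17b11 and Hsd11b1 / Hsd17b2 in each of the 4 control and 4 alcohol samples, with the mean ± SD in black. In each panel the groups do not overlap, and the ratio of Hsd3b3 to Hsd3b5 goes from 0.258–0.366 to 1.21–2.79.

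Hsd3b7, the bile acid enzyme of the group (chr7:127800604-127803802, plus strand), did not follow its relatives. Its values were 135.0, 134.2, 129.3 and 108.2 FPKM in control and 120.6, 135.2, 119.6 and 126.4 FPKM in alcohol, with fully mixed groups. The log2 change was -0.01 ± 0.11, with a 95% interval of -0.25 to 0.23 (limma adjusted p = 0.946), and under median-of-ratios scaling it was -0.31 and passed the test, while quantile normalization and TPM scaling (each library brought to the same summed level) gave 0.14 each without passing. Its reads are also uncertain: 83.1% of its 50-base stretches occur in another gene's transcripts, 50.7% on the same strand, and its exons overlap those of Gm49388 on the same strand and 9430064I24Rik on the other.

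Other enzymes of bile acid synthesis went both ways. Of the 14 tested genes on that list 4 rose, Cyp39a1, Acox2, Akr1d1 and Baat, and 7 fell. Without control replicate 3 or alcohol replicate 1, and under median-of-ratios scaling, 2 rose, and on the TPM scale 4 fell. Cyp39a1, which hydroxylates 24-hydroxycholesterol, rose from 3.71 to 26.2 FPKM (log2 change 2.53), and Acox2, of peroxisomal side chain shortening, rose by 1.04 on the log2 scale. Cyp7b1, of the alternative pathway, fell from 153 to 26.0 FPKM (log2 change -2.35), and Amacr, the racemase that prepares the side chain, changed by -0.90. Cyp7a1, the rate-limiting enzyme of the classical pathway, was at 20.4–33.9 FPKM in control and 14.5–37.9 FPKM in alcohol and did not pass the test; it was named after its values were seen.

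Hsd11b1 (chr1:193221634-193264075, minus strand) was the most abundant member in both groups. Control values were 305, 414, 415 and 387 FPKM and alcohol values 318, 418, 374 and 427 FPKM, and replicate 1 was lowest in each group. The means were 380 ± 51.8 and 384 ± 49.9 FPKM (SD, n = 4 each). The log2 change was 0.02 ± 0.14, with a 95% interval of -0.30 to 0.33 (limma adjusted p = 0.935), and it was -0.29 under median-of-ratios scaling, also without passing. H6pd, which supplies the cofactor of Hsd11b1 in the endoplasmic reticulum, was at 39.5–53.0 FPKM in control and 44.1–65.5 FPKM in alcohol and did not pass either (limma adjusted p = 0.434; named after its values were seen).

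Genes of the glucocorticoid receptor and its known targets were read from a further list. Of 20 tested, 10 rose and 3 fell, Pck1, Fkbp4 and Serpina6. In the same fit 44.2% of all tested genes rose and 13.0% fell, so these counts were near the general share. The kinase gene Sgk1 rose from 1.21 to 45.3 FPKM and the growth factor binding protein gene Igfbp1 from 38.2 to 696 FPKM. The cell cycle inhibitor gene Cdkn1a rose by 4.32 and the metallothionein gene Mt1 by 3.79 on the log2 scale. These genes also respond to other stresses, and the list's count is given as a description.

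Hsd17b2, which oxidises oestradiol and testosterone to weaker forms, fell in a narrow band. Control values were 102.3, 102.0, 104.1 and 118.7 FPKM and alcohol values 59.6, 69.0, 61.2 and 68.7 FPKM, well apart. The mean fell from 107 ± 8.00 to 64.6 ± 4.93 FPKM, a log2 change of -0.72 ± 0.10 (limma adjusted p = 0.000236). Set against Hsd11b1, whose level did not pass the test, the ratio of Hsd11b1 to Hsd17b2 was 2.98–4.06 in control and 5.33–6.20 in alcohol.

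Hsd17b6 (chr10:127990936-128007611, minus strand), an enzyme of androgen and retinol oxidation, fell more. Its control values were 93.3, 143.7, 127.3 and 148.2 FPKM and its alcohol values 39.5, 37.1, 55.0 and 36.0 FPKM, so the lowest control was well above the highest alcohol sample. The mean fell from 128 ± 24.9 to 41.9 ± 8.85 FPKM, a log2 change of -1.59 ± 0.17 (limma adjusted p = 4.5e-05), the 74th largest fall of all tested genes. Of its 50-base stretches 12.1% occur in other genes, led by Rdh1, a gene at 0.0890 FPKM or less in every library. Another of these genes, Rdh9, was expressed and fell, from 27.8 ± 6.89 to 16.8 ± 4.81 FPKM (log2 change -0.70, limma adjusted p = 0.0157; named after its values were seen), and the part of shared reads in the fall of Hsd17b6 was not tested.

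Enzymes that share these steroid substrates were read from a list of other steroid-modifying genes, of which 3 rose (Cyp17a1, Por and Akr1d1) and 8 fell among 15 tested (5 fell on the TPM scale). The count that rose was 2 under median-of-ratios or quantile scaling and with no minimum. It was also 2 without any 1 of control replicates 1 to 4 or alcohol replicates 1 and 3. The sulfotransferase gene Sult2a8 fell from 413 to 152 FPKM, the aldo-keto reductase gene Akr1c12 from 76.3 to 33.1 FPKM and the steroid 5-alpha-reductase gene Srd5a1 from 47.0 to 19.1 FPKM. Of the 24 tested retinol dehydrogenases and related short-chain dehydrogenases, the enzyme class to which the members belong, 6 rose and 8 fell. On the TPM scale 10 rose and 5 fell, and under median-of-ratios scaling 4 rose and 11 fell. The peroxisomal reductase genes Pecr and Decr2 changed by -1.05 and -1.14 on the log2 scale, and the carbonyl reductase gene Cbr3 and Rdh16f2 rose by 2.30 and 1.06. Cbr3 was at 0.125–0.246 FPKM in control and 1.38–8.98 FPKM in alcohol. It reached the minimum for a test only through the alcohol samples, so the count that rose leans upward.

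Hsd17b10 (chrX:152001845-152004442, plus strand) was the most variable member in control liver. Control values were 158.5, 252.7, 279.2 and 182.4 FPKM, while alcohol values were close together at 124.2, 119.0, 120.2 and 109.9 FPKM. The lowest control remained above every alcohol sample. The mean fell from 218 ± 57.1 to 118 ± 6.02 FPKM, a log2 change of -0.84 ± 0.17 (limma adjusted p = 0.00192), and the coefficient of variation was 26.1% in control and 5.09% in alcohol.

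Other genes of its mitochondrial roles were read from lists that do not hold Hsd17b10 itself. Of 5 tested genes of mitochondrial tRNA processing, 4 rose (2 under median-of-ratios scaling and 1 under quantile normalization) and 1 fell, the tRNA ligase gene Lars2, whose call was lost without control replicate 2 or 3 or alcohol replicate 1, 2 or 3. Its partner subunits in RNase P, Trmt10c and Prorp, rose by 0.61 and 0.37 on the log2 scale, the tRNA 3-prime end nuclease gene Elac2 rose by 0.55, and Trnt1, which adds the terminal CCA, rose by 0.28 but was at -0.056 under quantile normalization. Of 13 tested genes of isoleucine and short-chain fatty acid breakdown 5 fell, Hibadh and, with log2 changes of -0.41, -0.65, -0.31 and -0.35, Hibch, Ivd, Bckdha and Hadh, and 2 fell without control replicate 2 or 3 (3 without alcohol replicate 4). The count that fell also moved with scaling, to 0 on the TPM scale and 8 under median-of-ratios scaling. The 1 that rose, Bckdhb, was at -0.052 under median-of-ratios scaling, and its call was lost in 7 of the 8 fits that left out 1 sample.

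Hsd17b11 and Hsd17b13 are neighbours on the minus strand of 1 chromosome, at chr5:103989762-104021919 and chr5:103955440-103977410, and their coding sequences were 69.0% identical. Both proteins coat lipid droplets, the organelles in which hepatocytes store fat. Their upstream 250 bases (RefSeq, GRCm38.p6, minus strand, chr5:103977389-103977638 for Hsd17b13 and chr5:104021797-104022046 for Hsd17b11) are shown because the 2 genes differed in direction. The capitals in Hsd17b13 mark TGACCT, the nuclear receptor half-site AGGTCA read on the other strand.
Hsd17b13: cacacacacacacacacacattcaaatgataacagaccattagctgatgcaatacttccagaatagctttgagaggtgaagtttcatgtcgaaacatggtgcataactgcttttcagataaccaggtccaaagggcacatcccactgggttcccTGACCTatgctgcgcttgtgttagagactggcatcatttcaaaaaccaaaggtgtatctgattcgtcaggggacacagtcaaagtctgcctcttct
Hsd17b11: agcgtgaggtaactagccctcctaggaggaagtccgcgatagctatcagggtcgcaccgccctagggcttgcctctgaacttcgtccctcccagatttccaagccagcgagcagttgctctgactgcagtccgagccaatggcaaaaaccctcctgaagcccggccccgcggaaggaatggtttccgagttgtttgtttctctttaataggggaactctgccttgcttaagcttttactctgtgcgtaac
The windows were 56.5% identical over their aligned bases, with a longest shared run of 8 bases. AGGTCA, sought on both strands, was in 13.8% of the 27025 genes' windows and, among the 9 members with a window, in that of Hsd17b13 alone, 96 to 91 bases before the start. The match is a description of the letters, not of a bound site.

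Other short motifs were sought on both strands in the same windows. The palindromic STAT site TTCNNNGAA was in 7.2% of all windows and in 1 member, Hsd3b7, and AGAACA, a half-site of steroid receptors, was in 16.2% of all windows and in 1 member, Hsd3b2. The C/EBP-like TTGCNNAA was in 9.6% of all windows and in 1 member, Hsd17b11. TATAAA was in 13.0% of windows and in no member. CCAAT was in 34.5% of windows and in 5 members, Hsd11b1, Hsd17b10, Hsd17b11, Hsd17b6 and Hsd3b3. The RefSeq start used for Hsd11b1 lies 21715 bases from the GENCODE start of the gene. The letters were counted without regard to overlaps between motifs.

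The 2 neighbours moved apart. Hsd17b11 was at 121.3, 145.6, 141.9 and 113.7 FPKM in control and 68.7, 84.8, 87.2 and 80.8 FPKM in alcohol, with a mean going from 131 ± 15.5 to 80.4 ± 8.21 FPKM, a log2 change of -0.69 ± 0.12 (limma adjusted p = 0.000819). Hsd17b13 was at 165.9, 153.5, 147.7 and 141.8 FPKM in control and 174.3, 197.3, 165.0 and 217.3 FPKM in alcohol. The groups of Hsd17b13 overlapped narrowly, since alcohol replicate 3 lay below control replicate 1.

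Hsd17b13 passed the test by a small margin. The mean was 152 ± 10.3 FPKM in control and 188 ± 23.6 FPKM in alcohol, a log2 change of 0.30 ± 0.12 (95% interval 0.04 to 0.56; limma adjusted p = 0.0484), and the change was -0.0003 with adjusted p = 0.999 under median-of-ratios scaling. The call was kept in 3 of the 8 fits that each left out 1 sample. It was lost without control replicates 2, 3 or 4 or alcohol replicates 2 or 4, where limma adjusted p ranged up to 0.146. With a mean of at least 5 FPKM as the minimum the adjusted p was 0.0514. The ratio of Hsd17b13 to Hsd17b11, which needs no scaling between samples, was 1.18 ± 0.158 in control and 2.36 ± 0.346 in alcohol (SD, n = 4 each), with 1.04–1.37 against 1.89–2.69 and no overlap.

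Further lipid droplet proteins and lipases were mixed, with 5 of 22 tested genes higher (Hilpda, Cidec, Plin5, Abhd5 and Faf2) and 5 lower (Fitm1, Mgll, Cideb, Lipe and Mettl7a1) on the FPKM scale. Median-of-ratios scaling gave 2 higher and 7 lower, quantile normalization 3 and 7, and the TPM scale 7 and 4. The lipase inhibitor gene Hilpda rose by 0.95 on the log2 scale, whereas the monoglyceride lipase gene Mgll, the droplet-forming Fitm1 and the Cideb gene changed by -0.89, -1.40 and -0.74. The abundant droplet coat gene Plin2 was at 61.2–102 FPKM in control and 66.7–122 FPKM in alcohol, and the triglyceride lipase gene Pnpla2 at 32.3–43.3 and 27.6–41.6 FPKM. Neither passed the test, and both were named after their values were seen.

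**Figure D3:**
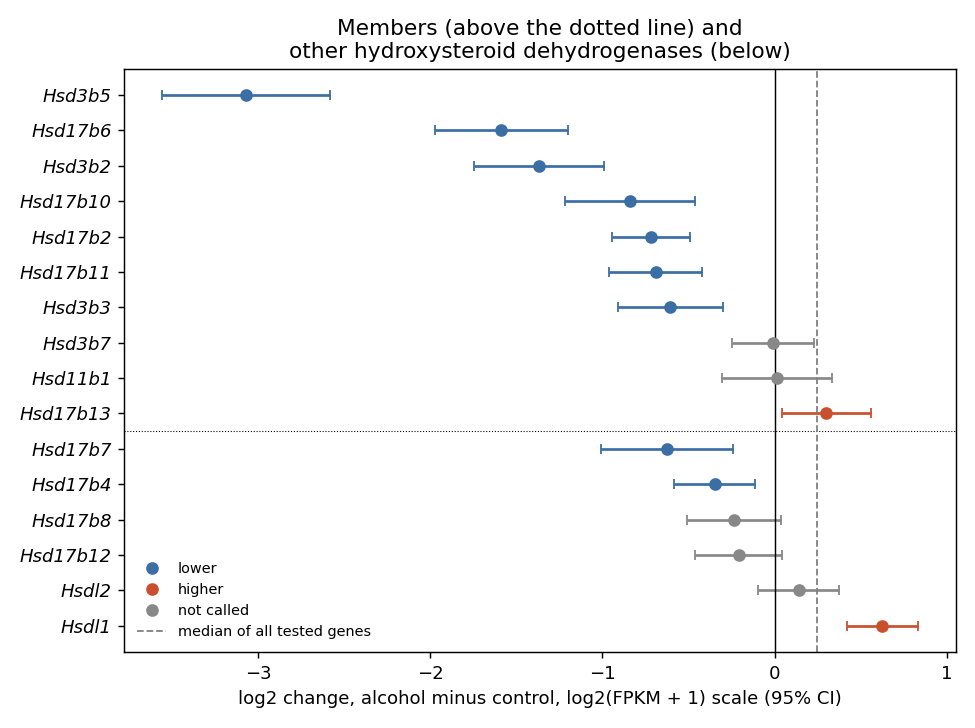
Log2 change in alcohol against control for the 10 genes and, under the dotted line, 6 other tested genes of the family, as points with 95% intervals from limma, coloured by the call, and with the median over all tested genes dashed. The 7 genes that fell lie between -3.07 and -0.61 and the intervals of Hsd3b7 and Hsd11b1 span 0.

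The order of levels among the members changed with alcohol. In control liver Hsd11b1 led with 305–415 FPKM, its range above that of every other member. Below it Hsd17b10, Hsd3b5, Hsd17b13, Hsd17b11, Hsd17b6, Hsd3b7 and Hsd17b2 formed a chain in which each neighbour's range overlapped the next, and Hsd3b3 and then Hsd3b2 followed without overlap. In alcohol liver Hsd17b13 stood second, its range above that of Hsd3b7, and Hsd3b5 stood next to last, its range above that of Hsd3b2 and below that of Hsd3b3. Between them the ranges overlapped for Hsd3b7 with Hsd17b10, Hsd17b11 with Hsd17b2 and Hsd17b6 with Hsd3b3. The summed level of the 10 genes was 1377–1611 FPKM in control and 961–1139 FPKM in alcohol. Of this sum Hsd11b1 made up 22.2–26.3% in control and 33.1–37.4% in alcohol, and Hsd17b13 made up 9.17–12.1% and 15.7–19.1%. These shares are of FPKM, a level per transcript length, and say nothing of protein.

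Other members of the family were mostly lower in level. Of 12 further hydroxysteroid dehydrogenase genes present, 6 reached the minimum for a test, and of these 1 rose and 2 fell (4 fell under median-of-ratios scaling and 1 under quantile normalization or on the TPM scale). Hsd17b7, of cholesterol synthesis, fell from 5.71 ± 1.63 to 3.31 ± 0.737 FPKM (log2 change -0.63, limma adjusted p = 0.0104), and Hsd17b4, of peroxisomal fatty acid and bile acid oxidation, from 154 ± 12.9 to 120 ± 9.15 FPKM (log2 change -0.35, limma adjusted p = 0.0174), and 1 of the 2 calls was lost without control replicate 3 or alcohol replicate 4. Hsdl1, a related gene of unsettled function, rose from 1.52 ± 0.0921 to 2.90 ± 0.335 FPKM (log2 change 0.63, limma adjusted p = 0.000286).

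Hsd17b8, Hsd17b12 and Hsdl2 did not pass the test, with log2 changes of -0.24, -0.21 and 0.14, and that of Hsdl2 was -0.15 under median-of-ratios and -0.041 under quantile scaling. The remaining 6, Hsd3b1, Hsd3b4, Hsd3b6, Hsd3b8, Hsd3b9 and Hsd17b1, were at 0.0991 FPKM or less in every library, with 0 to 9 reads each. At so few reads a difference between groups was not detectable. The adrenal and gonadal genes Star, Cyp11a1 and Nr5a1 were likewise at or near 0, with highest values of 0.178, 0.00833 and 0.00847 FPKM, although Cyp17a1, which liver also expresses in a sex-dependent way, rose by 0.98 on the log2 scale.

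Hsd3b5 belongs to the genes known to be higher in male than female mouse liver, a difference set by the pattern of growth hormone release. Of 21 tested genes on a list of male-predominant genes, which includes Hsd3b5, 16 fell and 0 rose, with a median log2 change of -1.56, and under the alternatives 14 to 19 fell and 0 rose. Keg1 fell from 184 to 27.2 FPKM, the nudix hydrolase gene Nudt7 from 136 to 22.6 FPKM and the fatty acid hydroxylase gene Cyp4a12a from 164 to 30.7 FPKM, with limma adjusted p of 1.16e-06, 1.16e-06 and 1.43e-06. The sex of the animals is not given in the labels used here, and this list was chosen with the fall of Hsd3b5 known.

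On the list of female-predominant genes, 6 of 10 tested rose and 1 fell, Cyp2c40, with a median of 1.07. In the same fit 44.2% of all tested genes rose and 13.0% fell. Without control replicate 2 or alcohol replicate 3, or under median-of-ratios or quantile scaling, 2 fell. Of 22 measured genes only these 10 reached the minimum. Cyp2b10 and Cyp2a4, with highest control values of 0.682 and 0.941 FPKM, did so only through the alcohol samples. The count and the median therefore lean upward, and with no minimum 8 of 22 rose and 1 fell. With no minimum 5101 of all 21049 genes rose and 1345 fell. Cyp2b10, a cytochrome strongly induced by xenobiotics, rose from 0.441 to 537 FPKM. The other cytochrome Cyp2a4 and the monooxygenase gene Fmo2 rose by 2.95 and 1.15 on the log2 scale. Of 12 tested genes of growth hormone signalling 2 rose, the transcription factor genes Stat5a and Stat5b, and 4 fell. The receptor gene Ghr, the growth factor gene Igf1 and its carrier gene Igfals changed by -0.76, -0.65 and -1.31, and the phosphatase gene Ptpn6 was the fourth. Quantile normalization gave 0 higher and 7 lower.

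**Figure D4:**
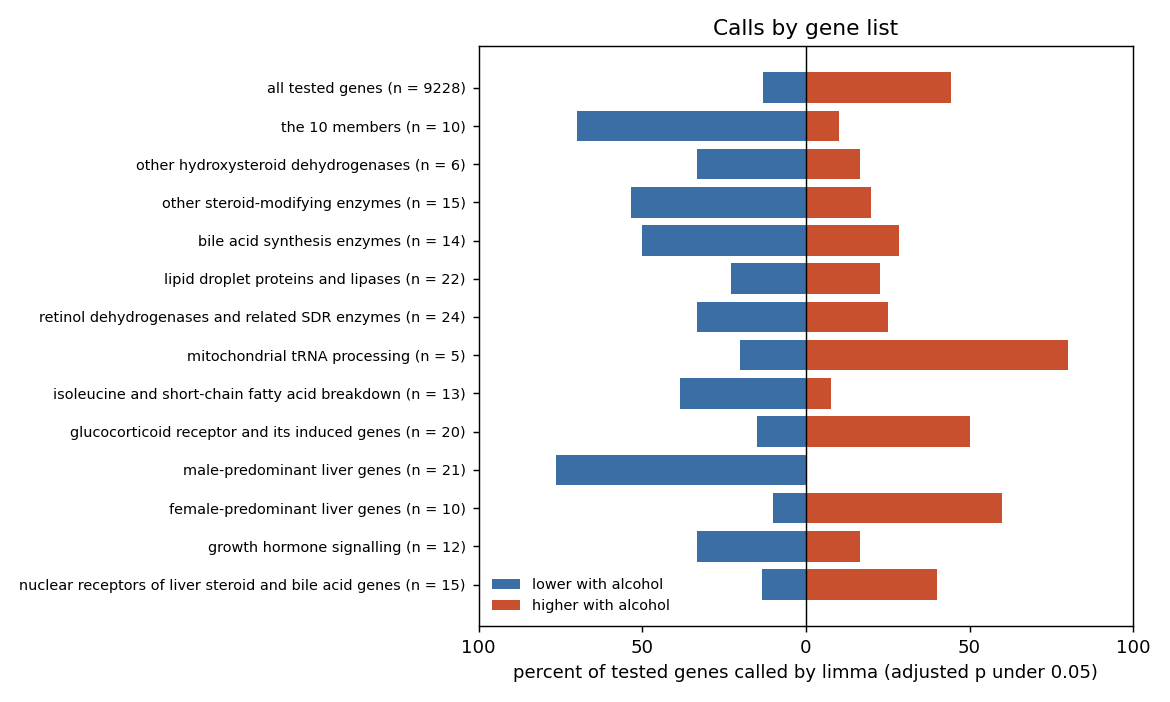
Percent of tested genes that were lower (bars to the left) or higher (bars to the right) with alcohol, for all tested genes, the 10 members and each gene list of at least 5 tested genes, with the number tested beside each name. Over all genes 13.0% were lower and 44.2% higher, while 7 of the 10 members and 16 of 21 male-predominant genes were lower.

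Among 15 nuclear receptor genes that act on liver steroid and bile acid genes, 6 rose and 2 fell (3 and 3 under median-of-ratios scaling). On the FPKM scale this was near the share over all tested genes, 44.2% higher and 13.0% lower. The orphan receptor gene Rora rose by 1.34 on the log2 scale, while Ppara, the fatty acid receptor, and Nr0b2, the corepressor induced by bile acids, changed by -1.24 and -2.57. Rora, with a mean of 0.832 FPKM in control and 3.65 FPKM in alcohol, reached the minimum for a test only through the alcohol samples. Of 3 tested genes for sex steroid receptors and carriers, Esr1 rose by 0.68 and Pgrmc2 changed by -0.36. Markers of further cell types did not reach the minimum for most genes: 2 of 7 cholangiocyte, 2 of 8 neutrophil and 0 of 11 lymphocyte genes were tested, and 1 of these, the cholangiocyte gene Slc4a2, rose, a call lost in 7 of the 8 fits that left out 1 sample. Among adipocyte genes Fabp4 and Cidec rose and Cfd and Car3 fell, and the red blood cell gene Alas2 and the pancreas gene Cela1 fell. Cfd, at 3.30–25.3 FPKM in control and at most 0.234 FPKM in alcohol, reached the minimum for a test only through the control samples. Among Kupffer cell and macrophage genes 1 of 8 tested fell, Cd68, and without control replicate 2 this count was 6. Among stellate cell genes Col3a1 fell, a call lost in 5 of the 8 fits that left out 1 sample.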

How the data were processed

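Levels were read from 1 deposited table in which the authors gave FPKM for 21049 genes in 8 mouse liver libraries, 4 control and 4 alcohol. RNA was extracted with a column kit and libraries were made with a SMARTER messenger RNA kit, per the labels' protocols. The builds named in the submitters' processing notes are GRCm38 and mm10. Not given in the sources used here were the aligner, the counter, the annotation and the use of strand, so reads from overlapping genes on opposite strands may not be separable. The FPKM values were deposited with no read counts beside them. Whole reads were recovered for 21047 genes (tolerance 1e-05) as the multiple of the value that 1 read adds, and were used for depth and for 1 alternative test.

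Those genes whose average over the 8 samples reached 1 FPKM (9228) were tested with limma 3.58.1 in R 4.3.3, with a variance trend, on log2(FPKM + 1), alcohol minus control. Benjamini-Hochberg adjustment ran over all 9228 genes with a threshold of 0.05. Log2 changes are on this scale, so those of low genes are understated. The fit was tested on simulated data. Replicate numbers were not used as pairs in the main fit, since the labels give no shared animal or day. Deviations of same-numbered samples correlated at 0.349, 0.216, 0.071 and 0.28, which does not settle whether the samples were paired.

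All 10 members and every tested gene of the list of other hydroxysteroid dehydrogenases are named, with up to 4 called genes of smallest p from each further list (the 2 with the highest mean where none passed), and the 3 genes most like Hsd3b5 and Hsd17b13 by correlation of deviations. Genes making up a count of 5 or fewer, and H6pd, Cyp7a1, Plin2, Pnpla2 and Rdh9, were named after their values were seen. One gene that this rule names is not reported here. The members and lists were chosen with earlier results of these data known. Transcript overlap and coding identity came from GENCODE M21, promoters from RefSeq (GRCm38.p6; 9 of 10 members matched), aligned with Biopython 1.88. Alternatives changed the pseudocount, the minimum, the scaling, the variance model, the samples, the pairing and the test.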

Additional observations from a re-analysis of the deposited data

Results flagged for a closer look

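In groups of 4 samples, a sample was singled out where its gap to the nearest other, as a part of the group's range, exceeded Dixon's 95% critical value, which chance does in about 1 in 20 groups. Of 240 groups examined, 14 had such a sample. Among the members, Hsd17b2 in control replicate 4 was at 118.7 FPKM with the other controls at 102.0–104.1 FPKM. The ratio of Hsd11b1 to Hsd17b2 was lowest in alcohol replicate 1, at 5.327 against 6.058–6.205 in the others, and still above every control. The share of Hsd11b1 in the summed level was lowest in control replicate 1, at 22.16% against 25.74–26.3%.

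Alcohol replicate 1 stood out for 6 further genes: Cyp2b10 at 724.4 FPKM, Sgk1 at 61.79 FPKM, Trmt10c at 13.78 FPKM, the neutrophil genes S100a9 at 18.44 FPKM and S100a8 at 13.73 FPKM, and the adipocyte gene Cidec at 13.37 FPKM. In each of these it was the highest of the 4, and for Hibadh, at 175.8 FPKM, the lowest. The remaining values were Srd5a1 in alcohol replicate 3 at 27.57 FPKM, the stellate cell gene Hand2 in alcohol replicate 4 at 5.373 FPKM, and Ghr at 153.8 FPKM and Cps1 at 730.9 FPKM in control replicate 1.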

How the results depend on the processing

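The 7 genes that fell kept their direction and their call under all 18 alternatives, with Hsd3b5 between -3.36 and -2.85 and Hsd3b3, the smallest fall, between -0.90 and -0.47. The rise of Hsd17b13 did not: the number of members that rose was 0 with no minimum (log2 change 0.30, limma adjusted p = 0.0586), with a minimum of 5 FPKM (0.30, 0.0514), with median-of-ratios scaling (-0.0003), with the replicate block (0.30, 0.0519) and with alcohol replicates 2 and 4 as 1 sample (0.25, 0.122), an alternative chosen after seeing the data. Leaving out each sample gave 0 to 1 members that rose and Hsd17b13 between 0.23 and 0.36. Hsd3b7 was -0.31 (limma adjusted p = 0.0272) when scaled by median of ratios and 0.14 with quantile and TPM scaling, and -0.083 to 0.022 leaving out each sample. Hsd11b1 was -0.29 with median-of-ratios scaling, -0.033 with alcohol replicates 2 and 4 as 1 sample, and -0.086 to 0.10 leaving out each sample. Over all genes, 1981 rose with the minimum at 5 FPKM, where fewer genes were tested. Median-of-ratios scaling gave 2386 higher and 2446 lower, and quantile normalization 2221 and 2307. The block of replicate numbers, which the labels tie only by number, gave 4307 higher and 1380 lower. It changed no member's call other than that of Hsd17b13. Only control replicates 1 and 4 and alcohol replicates 1 and 4 correlated best with their own number. The test of recovered reads with limma voom, added after seeing the data, gave 4088 higher and 1188 lower. The planned edgeR test was not run, since the deposited values are FPKM. Of 1813 values of 102 other named genes, 1651 kept direction and call, 147 lost the call, 4 gained it and 11 reversed. With median-of-ratios scaling these were Hsdl2 (-0.15), H6pd (-0.16) and Bckdhb (-0.052), with quantile normalization Hsdl2 (-0.041), Trnt1 (-0.056) and Eif4e2 (-0.029), and on the TPM scale Txndc15 (0.13). Leaving out each sample, Txndc15 was between -0.068 and 0.062, S100a9 between -0.013 and 1.05 and Cyp7a1 between -0.44 and 0.0033. The causes were not tested. With 392 or more reads per library for each member, counting error was small beside the spread between samples, and the 4 samples per group set the precision.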

Other observations

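By the correlation of deviations from the group means over the 8 samples, a measure that leaves the alcohol difference out, the genes most like Hsd3b5 were Nptn, Txndc15 and Eif4e2, with r of 0.993, 0.987 and 0.982. Their own log2 changes were 0.31, -0.01 and 0.28, so they shared the spread of Hsd3b5 within groups without its fall. The genes most like Hsd17b13 were Pea15a, Ppp2cb and Phf13, with r of 0.979, 0.978 and 0.973 and log2 changes of 1.01, 0.81 and 0.58. They were picked as the 3 highest of 9228 genes, and all values come from the same 8 libraries, so r is given as a description.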
